A study of Mus musculus with 10 samples.

Results

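PRC2 is the Polycomb complex that places the H3K27me3 mark, a histone methylation found at silenced genes. Its catalytic subunit is Ezh2 or the related Ezh1, which methylate the histone, and it needs Suz12, which holds the complex together, and Eed, which binds the mark itself. Jarid2 and the Polycomb-like proteins Phf1 (Pcl1), Mtf2 (Pcl2) and Phf19 (Pcl3) associate with this core and help it to bind chromatin, and the Polycomb-like proteins carry a Tudor domain and PHD fingers. In ESCs PRC2 lies mainly at CpG-rich starts of developmental regulators such as the Hox genes. The 8 genes Ezh1, Ezh2, Eed, Suz12, Jarid2, Phf1, Mtf2 and Phf19 were chosen by name from 22367 protein-coding genes of GENCODE vM1, and the question put to the data was whether PRC2 binds the genes that encode its own subunits.

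The data were ChIP-seq site lists from mouse ESCs, made from 6 ChIP and 4 input libraries. Suz12-TAP (antibody FlagM2, which binds the tag) and H3K27me3 were measured in ESCs derived from gene trap line XG122 with genotype Suz12 Suz12TAP/+, in which 1 allele of Suz12 encodes the tagged protein, and which expressed either scramble shRNA or Pcl3 shRNA. Pcl3-TAP was measured with FlagM2 in E14 ESCs that carried Pcl3-TAP and an shRNA against wild type Pcl3, 1 library with shRNA6 and 1 with shRNA7, which share a single list. Per the methods the shRNA cells were selected after lentiviral infection and picked as clones, and the Pcl3-TAP construct was not recognized by the shRNA. Each other ChIP group was 1 library, so that no value below has a replicate and no test between conditions was possible. The 4 lists hold 8876 Suz12 binding sites in scramble cells, 5722 Suz12-depleted sites (Suz12 binding sites with less Suz12 in Pcl3 shRNA cells), 5242 Pcl3 binding sites and 678 H3K27me3-depleted sites (less of the mark in Pcl3 shRNA cells), each with a p-value of the authors. The depleted list gives the binding p-value again at every site, so the size of the Suz12 loss at a site is unknown, and no list gives the level of H3K27me3. The reads per library and the expression of Phf19 or of ESC markers are not in the lists, so the knockdown and the cell type could not be checked here. The paper reports the Pcl3 knockdown by qRT-PCR and immunoblot of its ESC clones. A gene was counted as having a site where at least 1 bp of the site fell in the gene body or within 5 kb of it, and absence from a thresholded list does not show absence of binding.

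Suz12 binding was found at 1 of the 8 genes, Phf19, which encodes Pcl3. This is 12.5% of them, against 28.8% of all protein-coding genes. Phf19 was also the only one of the 8 with a Suz12-depleted site, against 20.7% of all genes, and the only one with a Pcl3 binding site, against 14.7% of all genes. None of the 8 had an H3K27me3-depleted site, against 3.13% of all genes. With 10 kb each side in place of 5 kb, Phf1 was added and the count was 2 of 8, against 32.1% of all genes. Within 5 kb of the gene start, Suz12 again lay at 1 of the 8 and at 24.6% of all gene starts. With 8 genes these shares are coarse, and 1 gene more or less moves each of them by 12.5 percentage points.

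The sequence at the start of Phf19 is shown because both proteins were placed there. It is on chromosome 2 of mm9, and the gene is read from the minus strand. The central 300 bp of the Pcl3 site, chr2:34769001-34769300, lie in the first intron and inside the Suz12 site, and hold 10 CpG, which are in capitals here and below.

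Phf19, center of the Pcl3 site: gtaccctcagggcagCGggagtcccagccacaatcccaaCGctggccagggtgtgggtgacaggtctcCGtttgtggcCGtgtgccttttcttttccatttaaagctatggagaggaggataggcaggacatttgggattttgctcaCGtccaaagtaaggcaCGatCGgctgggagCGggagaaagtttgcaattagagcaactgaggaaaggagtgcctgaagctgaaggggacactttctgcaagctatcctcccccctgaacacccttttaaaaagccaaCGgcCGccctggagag

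The 200 bp just before the gene start, chr2:34769547-34769746, are also inside the Suz12 site and hold 25 CpG. They are shown with the 200 bp before the starts of 3 core genes where no Suz12 site was listed, Ezh2 (chr6:47545341-47545540, minus strand), Eed (chr7:97129494-97129693, minus strand) and Suz12 (chr11:79806408-79806607, plus strand). The 4 stretches run 5′ to 3′ on the strand of each gene and end at the base before its start.

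Phf19, before the gene start: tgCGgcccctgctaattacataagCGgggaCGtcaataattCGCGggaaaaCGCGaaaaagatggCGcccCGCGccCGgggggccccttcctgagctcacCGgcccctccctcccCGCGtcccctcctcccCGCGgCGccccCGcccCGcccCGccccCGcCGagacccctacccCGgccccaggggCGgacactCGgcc
Ezh2, before the gene start: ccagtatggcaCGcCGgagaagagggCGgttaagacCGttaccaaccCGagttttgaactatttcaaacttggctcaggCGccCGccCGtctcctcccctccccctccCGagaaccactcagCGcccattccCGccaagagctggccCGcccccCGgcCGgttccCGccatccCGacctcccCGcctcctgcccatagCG
Eed, before the gene start: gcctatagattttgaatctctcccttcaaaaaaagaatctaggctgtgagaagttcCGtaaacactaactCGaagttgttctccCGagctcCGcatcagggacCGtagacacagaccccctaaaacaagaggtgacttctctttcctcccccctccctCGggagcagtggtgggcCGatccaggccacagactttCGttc
Suz12, before the gene start: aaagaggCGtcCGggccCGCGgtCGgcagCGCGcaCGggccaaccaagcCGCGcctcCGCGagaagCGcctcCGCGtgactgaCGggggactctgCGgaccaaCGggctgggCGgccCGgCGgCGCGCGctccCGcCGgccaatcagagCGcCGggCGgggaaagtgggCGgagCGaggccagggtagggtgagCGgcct

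The stretch before Ezh2 holds 18 CpG, that before Eed 8 and that before Suz12 32. The number before Phf19 thus lies between those of starts without a listed Suz12 site. GCGCGC, a run of CpG that reads the same on both strands, occurs 3 times before Suz12, counting overlapping matches, and not in the other 3 stretches or in the central part of the Pcl3 site.

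At Phf19 (ENSMUSG00000026873.3, chr2:34749277-34769546, minus strand) the Suz12 site was chr2:34768251-34770200, 1950 bp wide, against a median of 1100 bp in its list. It reached from 654 bp upstream of the gene start to 1295 bp inside the gene. Its p-value was 7.19e-89, which ranked 1928 of 8876, in the strongest 21.7% of Suz12 sites. The same site was in the Suz12-depleted list, so that less Suz12-TAP was recorded at the gene of Pcl3 in cells with Pcl3 shRNA. The paper also reports lower Suz12 mRNA and protein in Pcl3 knockdown cells. It proposes that this may account for part of the lost Suz12 binding. The part of this at Phf19 or at any other depleted site was not tested. The Pcl3 site was chr2:34768701-34769600, 900 bp wide, with a p-value of 2.09e-16, which ranked 2696 of 5242, near the middle of its list (51.4%). All of it (100%) lay within the Suz12 site, and the centers of the 2 sites were 75 bp apart, at 321 bp and 396 bp inside the gene. The lists thus place Suz12 and Pcl3 over the same stretch, although they come from different cell lines and Pcl3-TAP was carried by cells with an shRNA against wild type Pcl3.

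The Suz12 site covered the first, noncoding exon of Phf19 (86 bp) and part of the first intron, and neither it nor the Pcl3 site covered any coding base (0 bp). The nearest coding exon was 934 bp away. Gm13448, a gene not among the protein-coding genes and transcribed from the other strand, overlaps the Phf19 start. Of its exons, 513 bp lay in the Suz12 site and 0 bp in the Pcl3 site, so the Suz12 site overlaps 2 annotated genes. No other site of any list lay within 100 kb of the Phf19 start. The nearest H3K27me3-depleted site was 1249 kb away, 2.72 kb from the start of Lmx1b, a LIM homeobox gene. The map of sites at the start of Phf19 shows the nested sites and the exons.

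**Figure D1:**
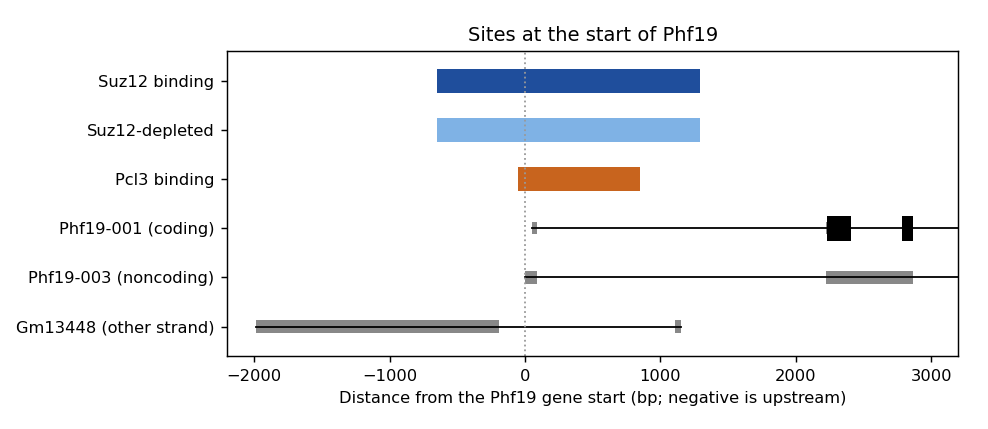
Sites at the start of Phf19, plotted by distance from the gene start in bp. Colored bars are the Suz12, Suz12-depleted and Pcl3 sites, thick black blocks are coding exons, and gray blocks are noncoding exons. The Pcl3 site (900 bp) lies inside the Suz12 site (1950 bp), and both end before the first coding exon.

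To place this site among others of like strength, the 887 Suz12 sites ranked nearest to it were examined, those within 5% of the list on each side. Of these 885 (99.8%) were in the depleted list, 732 (82.5%) overlapped a Pcl3 site and 120 (13.5%) overlapped an H3K27me3-depleted site. In each of the 3 lists the Phf19 site thus had the state most frequent at its strength, depleted, with Pcl3, and without an H3K27me3-depleted site. Over all genes, 12.8% had a Suz12, a Suz12-depleted and a Pcl3 site in the same window, as Phf19 did. Of the 6442 genes with a Suz12 site, 71.7% also had a depleted site, 47.7% a Pcl3 site and 10.5% an H3K27me3-depleted site.

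Ezh1 and Ezh2 encode the catalytic subunits. Ezh1 (ENSMUSG00000006920.8, chr11:101052429-101087777, minus strand) had no site in its window but many around it. Its nearest Suz12 site lay 12.6 kb downstream, in the body of Cntnap1 and 2.44 kb from the start of the chemokine receptor gene Ccr10, with a p-value of 1.03e-11 and outside the depleted list. A stronger, depleted site (Skellam p-value 1.96e-83) lay 13.6 kb downstream and a Pcl3 site (Skellam p-value 4.67e-23) 14.4 kb downstream. Within 100 kb of the Ezh1 start were 14 Suz12 sites, 10 of them depleted, and 3 Pcl3 sites, against a median over all genes of 1 Suz12 site, with quartiles of 0 and 2. They fell in a group of 8 downstream, around Cntnap1, Plekhh3 and Ccr10, and a group of 6 upstream, around Ramp2, Wnk4 and Cntd1, and none lay between (these gene names other than Ccr10 were chosen after the sites were seen). Ezh1 was also the nearest of the 8 to an H3K27me3-depleted site, at 12.0 kb downstream with a p-value of 4.48e-09, and 4.02% of all genes were as near or nearer. Chromosome 11, where Ezh1 and Suz12 lie, held 29.2% of all H3K27me3-depleted sites (198 of 678), 10.4% of Suz12 sites and 7.39% of protein-coding genes, and the part of this in the result at Ezh1 was not tested.

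Ezh2 (ENSMUSG00000029687.9, chr6:47480273-47545340, minus strand), the main methyltransferase of ESCs, had its nearest Suz12 site 55.5 kb upstream in intergenic DNA, with a p-value of 1.56e-18 and in the depleted list. Ezh2 was the nearest gene start to that site, the only case among the 7 genes without a Suz12 site. A Suz12 site lay as near in 51.7% of all genes. The nearest Pcl3 site was 75.4 kb downstream in Cul1, a ubiquitin ligase scaffold gene, and its p-value of 1.37e-09 was among the weak ones of the list (rank 4072 of 5242). The nearest H3K27me3-depleted site lay 309.3 kb away.

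Eed and Suz12 complete the core. Eed (ENSMUSG00000030619.8, chr7:97103166-97129493, minus strand) lay far from every list. Its nearest Suz12 site was 321 kb upstream (Skellam p-value 4.34e-52, depleted), overlain by a Pcl3 site (Skellam p-value 1.60e-26) at 320.9 kb, and 36.5 kb from the start of Ccdc83. Most genes (82.8%) were as near to a Suz12 site or nearer. The nearest H3K27me3-depleted site was 549 kb downstream, at Tmem135 and the Wnt receptor gene Fzd4.

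Suz12 itself (ENSMUSG00000017548.9, chr11:79806608-79847625, plus strand), the gene that carries the TAP tag in these cells, had 1 Suz12 site within 100 kb, 18.5 kb upstream of its start and outside any protein-coding gene, with a p-value of 6.18e-21 and in the depleted list. That site was closer to the start of Utp6, at 11.2 kb, than to that of Suz12. The paper describes Suz12 as not a known target of PRC2 and reports no Pcl3 enrichment at its locus. A Pcl3 site and an H3K27me3-depleted site lay together 119.9 kb and 119.6 kb downstream, at the start of Adap2. Of the core genes, Suz12 and Ezh1 were the 2 with a Suz12 site nearer than the median over all genes of 49.7 kb, and neither site touched the gene.

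Jarid2 (ENSMUSG00000038518.8, chr13:44824843-45017012, plus strand), which recruits PRC2 and stimulates it, was the longest of the 8 at 192 kb and held no site of any list. Of 1005 protein-coding genes at least as long, 67.2% had a Suz12 site in the window. Its nearest Suz12 site was 79.8 kb downstream, 9 bp from the start of Dtnbp1, with a p-value of 4.59e-13 and not in the depleted list. The nearest depleted site and the nearest Pcl3 site both lay 943 kb to 944 kb upstream, over the start of Cd83, a surface protein gene of activated immune cells. The nearest H3K27me3-depleted site was 3750 kb away. Jarid2 was thus farthest of the 8 from depleted, Pcl3 and H3K27me3-depleted sites.

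Of the Polycomb-like genes, Phf1 (ENSMUSG00000024193.7, chr17:27070072-27074835, plus strand), the shortest of the 8 at 4.76 kb, had the nearest site outside its window. A Suz12 site with a p-value of 3.33e-15, not depleted, lay 8.42 kb downstream of the gene, in intergenic DNA 6.83 kb from the start of Cuta. Within 100 kb of the Phf1 start were 7 Suz12 sites, 4 of them depleted, and 8 Pcl3 sites. Of these, 5 Suz12 sites and 7 Pcl3 sites lay 81.0 kb to 95.8 kb upstream, nearest to the start of the cardiac homeobox gene Nkx2-5 (named after the sites were seen), with 2 of the Suz12 sites listed with a p-value of 0. The nearest depleted site lay at 46.5 kb and the nearest Pcl3 site at 46.6 kb, and both were weak (ranks 5489 of 5722 and 4800 of 5242). The nearest H3K27me3-depleted site lay 1362 kb away, at the start of Sox8.

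Mtf2 (ENSMUSG00000029267.10, chr5:108494693-108538023, plus strand), which encodes Pcl2, had no site of any list within 100 kb of its start. Suz12, depleted and Pcl3 sites lay together 256 kb to 257 kb downstream at or near Gm10419. The nearest Suz12 site (Skellam p-value 1.08e-14, rank 6226 of 8876) was not depleted, and the nearest Pcl3 site was also weak (Skellam p-value 4.06e-10, rank 3911 of 5242). The nearest depleted site was a different one, listed with a p-value of 0. A Suz12 site was as near in 79.2% of genes. Its nearest H3K27me3-depleted site was 1599 kb away.

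**Figure D2:**
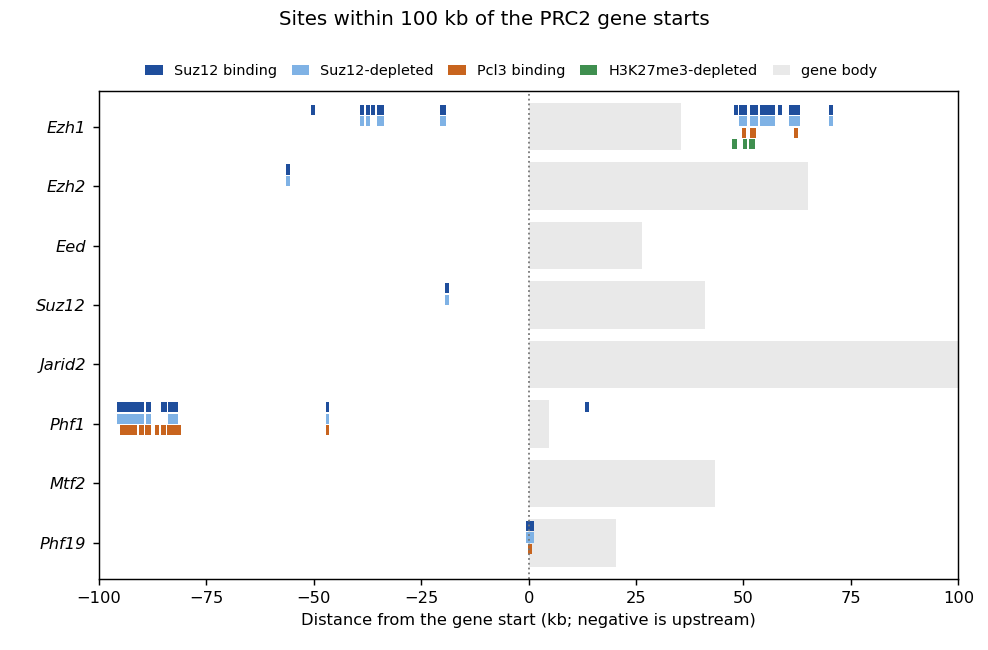
Sites of the 4 lists within 100 kb of the start of each gene, plotted by distance from the gene start in kb, with gene bodies in light gray (that of Jarid2 runs off the plot) and sites narrower than 0.8 kb drawn at 0.8 kb. The sites around Ezh1 and Phf1 stand outside the gene bodies, and only Phf19 carries sites at its start.

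Over the 8 genes the median distance from the gene body to the nearest Suz12 site was 37.0 kb, against 49.7 kb over all protein-coding genes. It was 51.0 kb to the nearest depleted site (95.5 kb over all genes), 97.6 kb to the nearest Pcl3 site (154.9 kb) and 898.8 kb to the nearest H3K27me3-depleted site (1303 kb). Each median over the 8 genes was thus below that over all genes, but the genes were divided. For Suz12 sites, Phf19, Phf1, Ezh1 and Suz12 lay nearer than 49.7 kb. Ezh2 (55.5 kb), Jarid2 (79.8 kb), Mtf2 (256 kb) and Eed (321 kb) lay farther, so no nearness was read from these medians. For 6 of the 7 genes without a Suz12 site, the nearest Suz12 site was closer to the start of another gene. The same share over all genes was not computed, so this count was not read as a result. For 3 of the 7 the nearest Suz12 site was in the depleted list, which holds 64.5% of all Suz12 sites. Those 7 sites ranked between the strongest 33.1% and 78.8% of the list, all below the Phf19 site. The plot of nearest sites gives each distance.

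**Figure D3:**
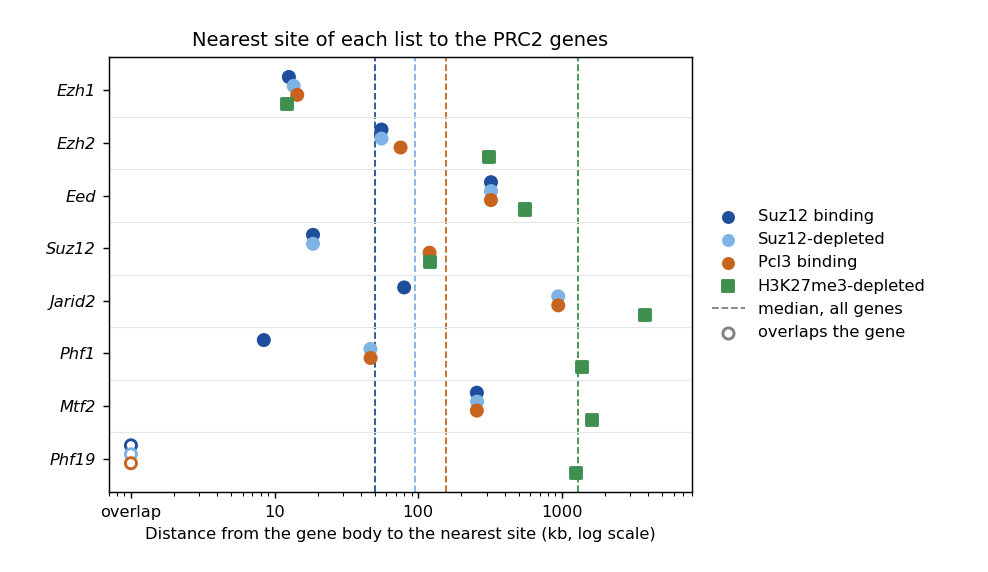
Distance in kb (log scale) from each gene body to the nearest site of each list; open symbols at the left mark overlap, and dashed lines mark the median over all protein-coding genes. Phf19 alone has open symbols, for the Suz12, Suz12-depleted and Pcl3 lists.

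Since PRC2 is known to favor CpG-rich DNA, CpG content was measured in the 1000 bp around each gene start. A start was counted as CpG-rich with a GC content of at least 55% and at least 0.65 of the CpG expected from its C and G. Of the 8 genes, 5 had such a start (Ezh1, Ezh2, Eed, Suz12 and Phf19), against 35.0% of all protein-coding genes. Suz12 lay within 5 kb of 38.7% of all CpG-rich starts (3027 of 7828) and of 17.1% of the others, and within 5 kb of 1 of these 5. The start of Phf19 held 8.0 CpG per 100 bp. Suz12 (11), Ezh2 (9.3) and Eed (8.8) were above it without a Suz12 site, while Ezh1 (7.0), Phf1 (6.0), Mtf2 (5.5) and Jarid2 (3.9) were below it. The median was 6.3 CpG per 100 bp over the 5507 starts with a Suz12 site and 2.5 over the 16860 without, so 4 of the 7 genes without a site (Ezh1, Ezh2, Eed and Suz12) were above the first median and all 7 were above the second. Jarid2 was near the middle of all gene starts, whose median was 4.0. GCGCGC occurred in 31.5% of all starts, in 54.5% of those with a Suz12 site, and in those of Ezh1, Ezh2, Eed, Suz12 and Phf19. CpG density therefore did not separate Phf19 from the genes without a site. The whole Suz12 site at Phf19 held 6.15 CpG per 100 bp, against a median of 5.41 over all Suz12 sites.

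**Figure D4:**
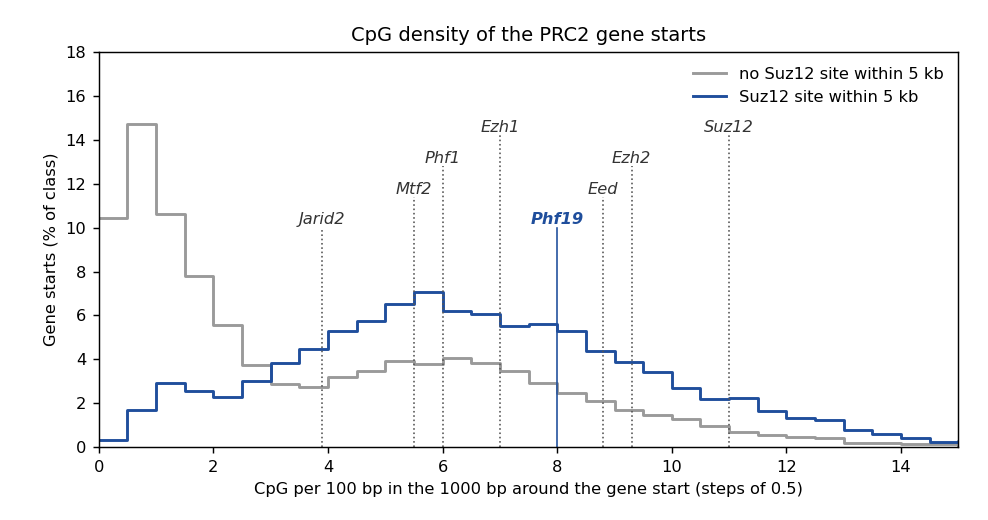
CpG per 100 bp in the 1000 bp around the gene start, as the percentage of gene starts with and without a Suz12 site within 5 kb (steps of 0.5). Vertical lines mark the 8 genes; Phf19 (8.0, solid line) lies between Ezh1 (7.0) and Eed (8.8), which had no site.

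Other Polycomb genes were counted in the same windows. Of 5 other genes of PRC2 accessory subunits (Aebp2, Rbbp4, Rbbp7, E130012A19Rik and Lcor), 1 had a Suz12 site (20.0%, against 28.8% of all genes). This was E130012A19Rik, which encodes an ESC partner of PRC2, with a p-value of 2.06e-25 and 380 bp from the start, and it had neither a depleted nor a Pcl3 site. None of the 5 had a site of the other 3 lists, against 20.7% (depleted), 14.7% (Pcl3) and 3.13% (H3K27me3-depleted) of all genes.

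The genes of PRC1, the complex that ubiquitinates histone H2A and in part reads H3K27me3, had sites more often by count, and no test was run on these shares. Of 22 PRC1 genes, 11 had a Suz12 site (50.0%, against 28.8% of all genes), 9 a depleted site (40.9%, against 20.7%), 7 a Pcl3 site (31.8%, against 14.7%) and 4 an H3K27me3-depleted site (18.2%, against 3.13%). Within 5 kb of the gene start, 8 of the 22 had a Suz12 site, against 24.6% of all gene starts. A depleted site lay there in 6 of the 22, against 3918 of 22367 genes. The H3K27me3-depleted count fell to 2 with no flank, with 2 kb flanks, within 5 kb of the gene start, and with p-values of at most 1e-10 or 1e-12, and the Pcl3 count fell to 4 with p-values of at most 1e-12. The 11 shared 18 Suz12 sites, of which 14 were depleted and 3 were listed with a p-value of 0. The chromodomain genes Cbx2 and Cbx8 shared 1 site of 12000 bp listed with a p-value of 0 (chr11:118895201-118907200), with a Pcl3 site of 12050 bp over it. That site was 10.9 kb from the start of Cbx2. Cbx2 also had a Suz12 site of its own at its start (Skellam p-value 4.95e-70, depleted), overlapped by a Pcl3 site (Skellam p-value 4.38e-30). The H3K27me3-depleted site of Cbx2 was shared with Cbx8, so in that list they do not count as independent cases. Bmi1, a Polycomb ring finger gene, had 4 Suz12 sites, all depleted, the one at its start with a p-value of 7.67e-197. Weaker sites lay at Yaf2 (Skellam p-value 1.03e-73), Kdm2b (Skellam p-value 2.17e-45, 62.2 kb from the start), Phc2 (Skellam p-value 7.33e-23), Pcgf5 (Skellam p-value 4.31e-16, 30.8 kb from the start) and Scmh1 (Skellam p-value 4.14e-12, not depleted), while the site at L3mbtl2 (Skellam p-value 1.75e-125) was 28.8 kb from its start. Cbx2 and Cbx8 lie on chromosome 11, which was rich in H3K27me3-depleted sites. Ring1 and Rnf2, the catalytic subunits of PRC1, had no Suz12 site in their windows, as was the case for Ezh1 and Ezh2.

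Of 6 genes whose products counteract Polycomb, 2 had a Suz12 site (33.3%, against 28.8% of all genes). These were the demethylase gene Kdm6b (Skellam p-value 5.43e-48) and Asxl3 (Skellam p-value 1.97e-65), both in the depleted list (33.3%, against 20.7%). Of 8 ESC markers 2 had one, Esrrb (Skellam p-value 6.61e-229, 59.9 kb from the start) and Klf4 (Skellam p-value 2.16e-85). All 39 Hox genes had Suz12, depleted and Pcl3 sites, and 19 of them had an H3K27me3-depleted site, so these known PRC2 targets are in the lists. A site in the windows of several neighboring Hox genes was counted for each, so the 39 need not be independent cases. Beside these the 8 PRC2 genes had 1 gene in each of 3 lists and 0 in the fourth, as the plot of gene lists shows. The other PRC2 accessory genes and the ESC markers also had 0 in the fourth. Since 1 gene moves a share of the 8 by 12.5 percentage points, the order of the gene lists was not read as a result.

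**Figure D5:**
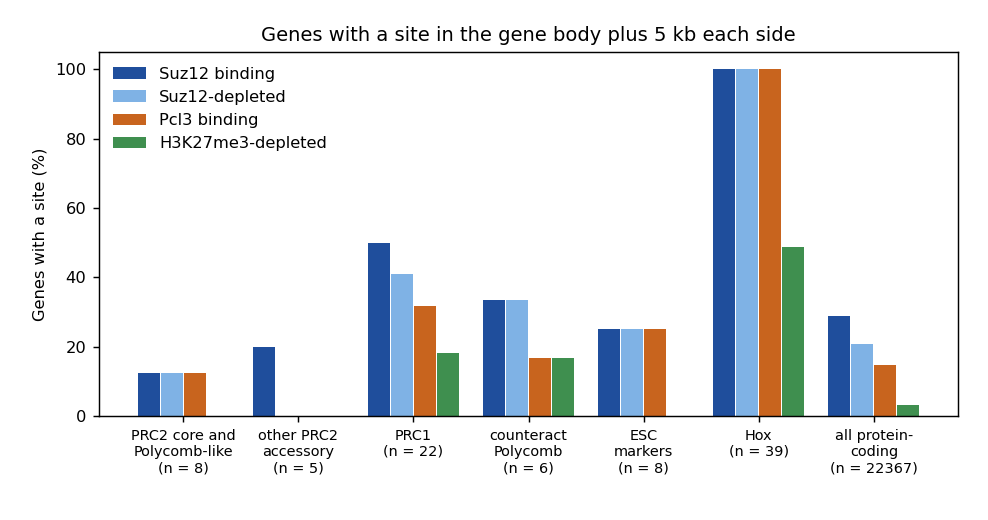
Percentage of genes with a site of each list in the gene body plus 5 kb each side, by gene list, with the number of genes under each group. The PRC2 core and Polycomb-like genes stand at 12.5% (1 of 8 genes) for 3 lists and at 0 for H3K27me3-depleted sites, and the Hox genes at 100% for 3 lists. Among the 8 genes, 1 gene moves a share by 12.5 percentage points. A site in the windows of several neighboring genes was counted for each of them.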

How the data were processed

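Per the labels and the paper's methods, single-end reads were aligned by the authors to mm9 with Bowtie, unique alignments were kept, paired libraries were scaled to equal background, and running windows were compared with the Skellam distribution. Significant windows that overlapped were joined, and the deposited p-value of each joined site is the only measured value in the 4 lists. Unique alignment leaves out repeated sequence, and the scaling assumes a like background on every chromosome. Site edges fall on multiples of 50 bp. A p-value written as 0 was ranked first. No read counts are in the lists, so the depth and the error of a single site are unknown.

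From the lists, overlap of at least 1 bp with the gene body plus 5 kb each side and the distance to the nearest site were computed for all 22367 protein-coding genes (GENCODE vM1, 1-based mm9 coordinates, list starts taken as 0-based). Where a symbol had more than 1 record the longer was used. The gene start was the 5′ end of the gene record over all its transcripts, so it need not be the most used start. At Phf19 it was that of a noncoding transcript, and the coding transcript began 50 bp inside the gene. CpG content was read from the mm9 genome. No test was run, since each ChIP group has 1 library, other than Pcl3-TAP, whose 2 libraries share 1 list. The search was checked against a base by base search of simulated intervals, with 0 of 300 differing. The genes and gene lists were chosen with earlier results of these data known. Named were the 8 genes, in each other list up to 10 genes with the smallest Suz12 p-value, and the gene start nearest to each nearest site. The values of 1 gene that the rule names are not reported here. Alternatives were other windows, the site center, p-values of at most 1e-10 or 1e-12, and CpG content over 500 bp. Python 3.11.15, numpy 2.4.6, pandas 2.3.3 and matplotlib 3.10.9 were used.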

Additional observations from a re-analysis of the deposited data

How the results depend on the processing

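Of 67 values recomputed under the alternatives, 59 stayed within 1.5 times of the count given or at the same distance. With 10 kb each side of the gene, 2 of the 8 genes had a Suz12 site, Phf1 being added, against 32.1% of all genes, and under every other window or p-value Phf19 alone had one. From the gene start, the median distance to the nearest Suz12 site was 37.4 kb. The PRC1 genes with an H3K27me3-depleted site numbered 2 in place of 4 with no flank, with 2 kb flanks, with 5 kb around the gene start, and with p-values of at most 1e-10 or 1e-12. The PRC1 genes with a Pcl3 site numbered 4 in place of 7 with p-values of at most 1e-12. With 500 bp around the gene start, 7 of the 8 genes were CpG-rich in place of 5, against 41.7% of all gene starts. No paired analysis was possible because no result comes from a test. The lists are thresholded, so weaker binding at the genes without a site was not detectable.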
